A study of Mus musculus with 36 samples.

Results

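The 10 genes *Epcam*, *Krt7*, *Krt8*, *Krt18*, *Krt19*, *Cldn3*, *Cldn4*, *Cldn6*, *Cldn7* and *Esrp1* were followed through 9 groups of mouse kidney cells. They were taken by symbol from a table of 22761 genes as genes of the simple epithelial state, and all 10 had values in it. The rule that picks them uses symbols and no measured value.

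EPCAM is a cell surface adhesion protein of most simple epithelia. *Krt8* and *Krt7* encode type II keratins and *Krt18* and *Krt19* encode type I keratins, and keratin filaments form from pairs of 1 protein of each type. *Cldn3*, *Cldn4*, *Cldn6* and *Cldn7* encode claudins, membrane proteins of the tight junctions that seal neighbouring epithelial cells together, and *Esrp1* encodes an RNA-binding protein that sets the epithelial pattern of splicing. In the developing kidney the ureteric bud (UB) is an epithelium that branches and goes on to form the collecting duct system, whereas the nephron progenitors (NP) and stromal progenitors (SP) around its tips are mesenchymal. ZEB and Snail transcription factors are known repressors of such genes, and grainyhead-like factors such as GRHL2 are known activators.

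The study made UB, NP and SP cells from mouse embryonic stem cells (mESC) and compared their RNA with that of cells isolated from embryonic kidneys (ex-fetu cells). There were 36 samples, 4 in each of 9 groups: UB, NP and SP cells from CD1 mice at embryonic days 11.5 and 12.5 (E11.5 and E12.5), engineered UB (eUB, titled iUB in the labels), induced NP (iNP) and induced SP (iSP) cells. The eUBs came from a reporter line of mESC that the labels call Sox9-mCherry, while the study's account of how its reporter line was made names Sox8, and the iNP and iSP cells from the E14 line. RNA came from sorted cells, and each sample pooled the kidneys of all embryos of a mouse or the embryoid bodies made in 1 differentiation batch. The sort kept UB cells with RET and EpCAM on their surface, and eUB cells with EpCAM and the mCherry reporter. NP and iNP cells were sorted as high in ITGA8 and low in PDGFRA, and SP and iSP cells as low in ITGA8 and high in PDGFRA, after cells positive for CD31, an endothelial protein, or for EpCAM or RET had been gated out. *Epcam* was therefore a gate of every sort, for UB cells and against them, so its difference between UB and mesenchymal groups is given as a check, and counts for that contrast are over the other 9 genes. The eUB and the iNP and iSP cells also differ in mESC line and protocol, which cannot be told apart from cell type. For ex-fetu UB the labels give 2 different ages, since the cell source is E12.5 where the title says E11.5 and the reverse. Groups follow the titles. Every value that rests on an ex-fetu UB group, be it the difference between the ages, from eUBs or from the mesenchyme, or a percent of a UB level, holds for the titles only.

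Values are normalised counts per M reads (normalised CPM), the library-scaled values that the authors deposited, and rest on 13.004 to 52.5 M reads on genes per library. In this scale 3 reads, taken as the limit of detection, were worth 0.0605 to 0.223, a limit that covers counting error only. Means are given ± SD over n = 4 libraries. Differences between groups are on the log2(normalised CPM + 1) scale ± SE, which understates changes of low genes, and a gene was called when its limma p-value, adjusted over all genes tested, was under 0.05. A gene was tested where at least 4 of the libraries compared reached 1 normalised CPM. Members that do so only through the group where they are highest, with fewer than 4 such libraries elsewhere, have little room to differ the other way, so counts are also given without them. In sorted bulk cells, fewer cells that express a gene and less RNA per cell cannot be told apart.

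Marker genes of the labelled types were present in every group: all 10 UB markers had a mean of at least 1 normalised CPM in the 3 UB groups, as did all 10 NP markers in the NP and iNP groups and all 8 SP markers in the SP and iSP groups. The levels differed, however, and the SP transcription factor gene *Foxd1* was at 11.35 to 19.2 normalised CPM in iSP cells, against 265 to 758 in ex-fetu SP, 44.3 to 92.9 in E11.5 NP and 14.99 to 29.5 in eUBs. The NP gene *Six2* was at 116 to 152 in iNP and 557 to 641 in E11.5 NP cells. A few libraries stood apart from their group. In E12.5 UB replicate 1 the summed NP markers were 574 normalised CPM against 58.8 to 91.8 in the other 3 libraries, the summed SP markers 321 against 16.3 to 31.8, and *Wt1*, an NP gene, 104 against 3.27 to 4.97, while its summed UB markers were 1600 against 2255 to 2428. In E12.5 NP replicate 1 the UB genes *Wnt9b* and *Ret* reached 3.48 and 8.93 normalised CPM against at most 0.539 and 2.13 in the other 3. *Wnt9b* was also highest in replicate 3 of E11.5 SP (7.15 against 2.29 to 3.504) and in replicate 2 of E12.5 SP (0.746 against 0 to 0.0956). *Ret* was highest in neither of these libraries. It was at 22.01 in the former, with 29.06 in replicate 1 of E11.5 SP, and at 3.487 in the latter, against 3.533 to 5.308 in the others of E12.5 SP. Replicate 2 of iNP had the NP gene *Itga8*, whose product was a gate, at 75.5 normalised CPM against 209.8 to 230.1, summed NP markers of 817.6 against 1085 to 1265 and summed neural markers of 71.5 against 46.3 to 48.5, and held the highest iNP value of 9 of the 10 members. Replicate 1 of E12.5 SP had summed SP markers of 1865 against 3232 to 3326. By the scatter of their counts against the others of their group, eUB replicate 1 (48.3 to 73.8 chi-square per degree of freedom), E11.5 NP replicate 1 (34.4 to 37.7), E12.5 NP replicate 2 (131.3 to 208) and E11.5 SP replicate 4 (44.4 to 209) also stood apart, where E11.5 UB libraries were at 5.405 to 19.4. The part of these cells or RNAs in the results was not tested.

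On GRCm38 (GENCODE vM21), members of both families lie close together. *Krt8* (chromosome 15, 101996698 to 102004482, minus strand) and *Krt18* (chromosome 15, 102028180 to 102032027, plus strand), the partners of 1 filament pair, start 23697 bases apart and are transcribed away from each other. *Krt7* (chromosome 15, 101411043 to 101430313, plus strand) is on the same chromosome. *Cldn4* (chromosome 5, 134945119 to 134946934, minus strand) and *Cldn3* (chromosome 5, 134986214 to 134987472, plus strand) have 1 exon each, are 39279 bases apart and also point away from each other. *Cldn6* (chromosome 17, 23679249 to 23682446, plus strand) ends 137 bases from the claudin gene *Cldn9*. *Epcam* is at 87635979 to 87651129 of chromosome 17 (plus strand), *Krt19* at 100140810 to 100148665 of chromosome 11 (minus strand), *Cldn7* at 69964779 to 69967885 of chromosome 11 (plus strand) and *Esrp1* at 11331933 to 11386783 of chromosome 4 (minus strand). A processed pseudogene, *Krt8-ps*, shares 98.62% of 941 bases with *Krt8* exons and had a mean of 1.479 normalised CPM over the 36 libraries, so low *Krt8* values are uncertain. Exons of *Krt7*, *Krt8*, *Cldn3* and *Esrp1* share 77, 101, 40 and 127 bases with the antisense genes *Gm671*, *Gm36026*, *Wbscr25* and *Gm26663*, and the use of strand in counting is not given in the sources used here.

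The promoters of genes with such a common pattern were read for the E-box CAGGTG, which ZEB and Snail factors are known to bind, in either orientation (CAGGTG or CACCTG). RefSeq promoter entries (GRCm38.p6, here the 250 bases before the transcription start) existed for 8 of the 10 genes, all but *Krt19* and *Esrp1*. These hold 9 windows, *Cldn7* having 2. At least 1 E-box was in 7 of the 9 windows, all but that of *Cldn3* and 1 of *Cldn7*, against 17.22% of all 32851 promoter windows of the same length. The letters AACCNGTT, a grainyhead-like motif, were in none of the 9 and in 1.79% of all windows, GGGCGG was in 6 of the 9 and in 32.74%, and TATAAA was in none and in 12.37%. Windows with no exon bases are shown whole for *Epcam* and for the neighbours *Cldn4*, with an E-box, and *Cldn3*, without one. Sequences run 5′ to 3′ on the strand of the gene, the last base being the one before the transcription start, and capitals mark the E-box. Their positions are chr17:87635729-87635978 (plus strand) for *Epcam*, chr5:134946935-134947184 (minus strand) for *Cldn4* and chr5:134985964-134986213 (plus strand) for *Cldn3*.
Epcam: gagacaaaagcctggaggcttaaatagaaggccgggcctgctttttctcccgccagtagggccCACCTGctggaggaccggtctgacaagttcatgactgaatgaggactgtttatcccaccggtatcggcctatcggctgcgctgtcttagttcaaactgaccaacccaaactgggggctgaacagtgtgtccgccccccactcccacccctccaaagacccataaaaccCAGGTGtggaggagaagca
Cldn4: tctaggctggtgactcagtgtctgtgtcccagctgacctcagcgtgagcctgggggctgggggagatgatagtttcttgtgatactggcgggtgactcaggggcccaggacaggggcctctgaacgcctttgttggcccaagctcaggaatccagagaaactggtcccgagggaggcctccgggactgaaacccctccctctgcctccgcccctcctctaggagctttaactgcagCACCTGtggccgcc
Cldn3: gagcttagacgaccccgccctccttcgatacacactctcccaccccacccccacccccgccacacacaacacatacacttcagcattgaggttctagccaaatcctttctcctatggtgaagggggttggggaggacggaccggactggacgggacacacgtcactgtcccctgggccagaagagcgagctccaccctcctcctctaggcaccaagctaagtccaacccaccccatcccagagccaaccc
For *Krt7*, *Krt18*, *Cldn6* and *Cldn7*, the windows overlap annotated exons of some transcripts, so only the box with 12 bases on each side is shown. These lie at chr15:101412347-101412376 (plus strand) for *Krt7*, chr15:102027990-102028019 (plus strand) for *Krt18*, chr17:23679260-23679289 (plus strand) for *Cldn6*, and at chr11:69965312-69965341 and chr11:69965352-69965381 (plus strand) in the downstream of the 2 starts of *Cldn7*. The starts of the boxes are 44, 214, 93, 97 and 57 bases before the transcription start.
Krt7: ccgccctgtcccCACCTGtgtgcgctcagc
Krt18: aggggctaacacCACCTGctatcctttgtg
Cldn6: gggaaacgcacgCAGGTGgctatcgccgca
Cldn7, first box: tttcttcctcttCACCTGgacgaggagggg
Cldn7, second box: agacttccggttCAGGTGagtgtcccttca
These matches describe the letters of the reference only, and no binding was measured here.

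In all 3 UB groups the 10 genes were abundant, and several were among the most abundant genes of the cell. Compared per kilobase of exon, the highest levels in E11.5 UB were those of *Cldn4* (751 ± 132 normalised CPM per kb), *Krt18* (694 ± 18.4) and *Krt8* (546 ± 17.9), of which the range of the first overlapped those of the other two. *Cldn6* (328 ± 17.2), *Epcam* (302 ± 2.53), *Cldn7* (201 ± 9.18) and *Cldn3* (171 ± 5.799) followed. *Esrp1* (56.1 ± 1.01), *Krt19* (34.9 ± 7.48) and *Krt7* (21.2 ± 0.223) were lower, the last being understated because the merged exons of all its transcripts were taken as its length. On this scale *Cldn4* and *Krt18* stood above 99.90% and 99.89% of 22649 genes in E11.5 UB. In eUBs the same 3 genes led, with *Cldn4* at 748 ± 81.2, *Krt18* at 405 ± 64.4 and *Krt8* at 355 ± 64.4 normalised CPM per kb, and *Krt7* was again lowest at 7.64 ± 0.317.

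**Figure D1:**
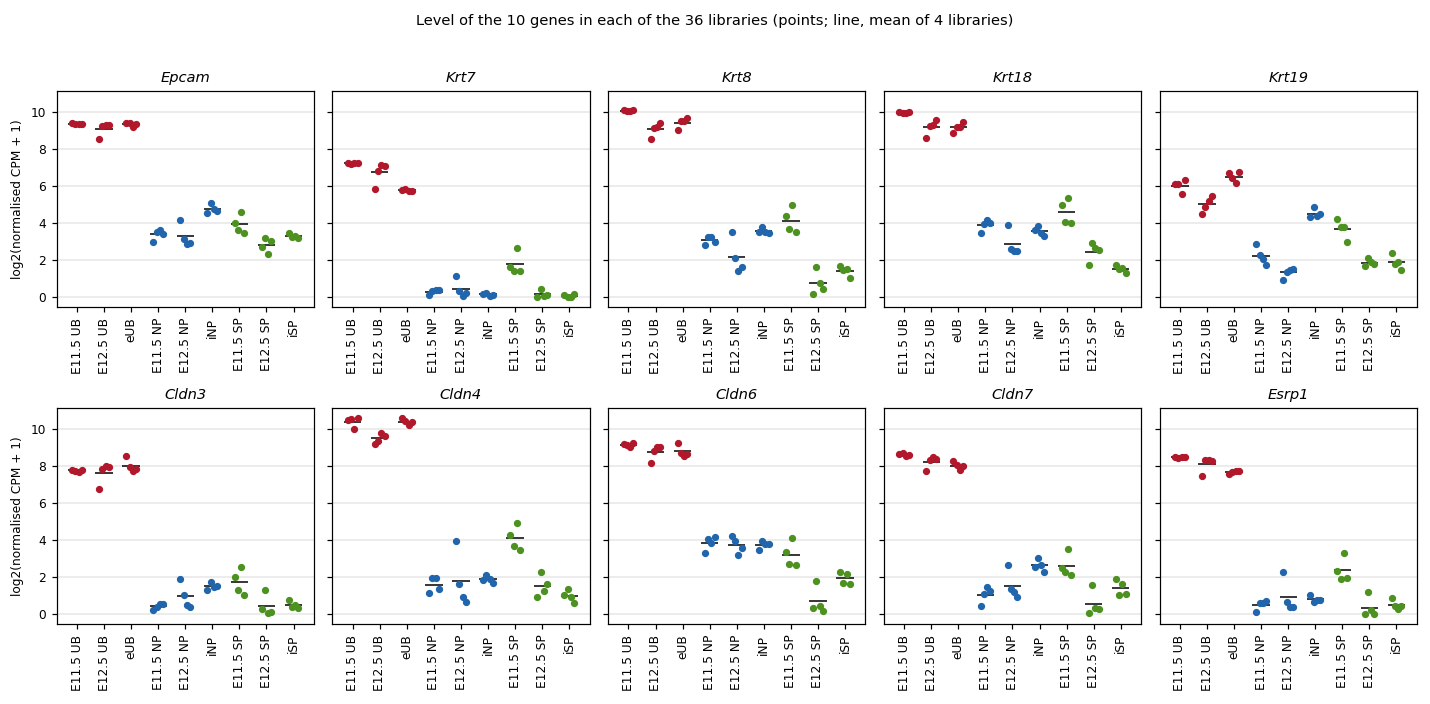
Level of each of the 10 genes on the log2(normalised CPM + 1) scale in the 36 libraries, with 1 point per library and a line at the mean of each group of 4. In every panel the means of the 3 UB groups lie above those of the 6 mesenchymal groups, and the gap is smallest for *Krt19*, where iNP libraries reach 28.7 normalised CPM and the lowest E12.5 UB library is at 21.0.

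Between UB and mesenchyme, all 9 genes other than *Epcam* were higher in the UB, at E11.5, at E12.5 and in the mESC-derived cells. The shares of all genes tested that were higher in the UB were 26.9%, 20.9% and 30.3%, and 56.4%, 40.3% and 62.9% were called in either direction. The median difference from the mean of NP and SP over the 9 genes was 6.47 at E11.5, 6.94 at E12.5 and 6.64 in mESC-derived cells, against -0.01, -0.02 and -0.02 over all genes tested. *Krt7* and *Esrp1* at E12.5 and in mESC-derived cells, and *Cldn3* at E12.5, passed the filter only through the UB, and the other 6 and 7 genes were all called. At E12.5, 7 of the 9 genes could still be tested without the 3 libraries of that age that stood apart, and all 7 were called. The largest differences were those of *Cldn4*, at 7.55 ± 0.25 (SE, limma adjusted p = 1.29e-11) at E11.5 and 8.97 ± 0.13 (SE, limma adjusted p = 1.76e-14) in mESC-derived cells. *Krt19* had the smallest, at 3.05 ± 0.24 (SE, limma adjusted p = 9.14e-08), 3.41 ± 0.19 (SE, limma adjusted p = 1.75e-08) and 3.304 ± 0.17 (SE, limma adjusted p = 2.08e-09) in the 3 contrasts. The check of the gate, *Epcam*, differed by 5.72, 6.05 and 5.32.

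In eUBs all 10 genes were present, and their levels ranged from well below those of E11.5 UB for *Krt7* to above them for *Krt19*. The adhesion gene *Epcam* stood at 684, 674, 588 and 651 normalised CPM in the 4 eUB libraries and 670.4, 661, 657 and 662 in the E11.5 UB libraries. The libraries of both groups overlapped, and the difference was -0.03 ± 0.072 (SE, limma adjusted p = 0.722). Both groups were sorted as positive for EpCAM, and the part of this gate in their likeness was not tested. Of the 10 genes, 6 were called between eUBs and E11.5 UB, 5 of them lower and 1 higher in eUBs, while 60.5% of the 13956 genes tested were called, 32.1% higher and 28.5% lower. The libraries of the groups did not overlap for 5 genes, all lower in eUBs, against 56.1% of all genes tested. The share of called members is thus that of genes in general, and no tendency of the members as such is read from it. With all 36 samples in the fit 3 of the 6 calls were left, *Krt8*, *Krt19* and *Cldn7* being lost, and without eUB replicate 1 the count was 7, with *Cldn6* at -0.51 (limma adjusted p = 1.45e-05) added. Markers moved in the same comparison. Those of other cells were macrophage markers, which summed to 37.1 to 65.6 normalised CPM in E11.5 UB and 2.15 to 5.56 in eUBs, and mesothelial markers, at 8.18 to 11.1 and 3.86 to 4.58. Surface ectoderm markers summed to 104.1 to 120.9 and 66.75 to 94.9, but include *Krt5*, *Tfap2a* and *Grhl3*, which are also in the further epithelial lists below. The UB gene *Wnt9b* was at 242 to 349.8 and 52.3 to 82.3. Their part was not tested.

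Among the 4 member keratins, *Krt7* had the largest difference. It was at 149.7, 147, 151 and 149 normalised CPM in the E11.5 UB libraries and 54.5, 56.7, 52.05 and 52.1 in the eUB libraries. Every eUB library was thus below every E11.5 UB library, and the difference was -1.46 ± 0.061 (SE, limma adjusted p = 8.47e-08). The filament partners *Krt8* and *Krt18* were both lower in eUBs. *Krt8* was at 1084, 1040.2, 1042 and 1113 normalised CPM in E11.5 UB and 522, 718, 718 and 824 in eUBs, a difference of -0.64 ± 0.13 (SE, limma adjusted p = 0.0017). *Krt18* was at 1003, 977, 977 and 1033 normalised CPM in E11.5 UB and 463, 591, 583 and 689 in eUBs, a difference of -0.79 ± 0.11 (SE, limma adjusted p = 0.000197). Neither gene's groups overlapped. *Krt19* was the only member called higher in eUBs, a call that was also lost with upper-quartile scaling or without any 1 of 5 libraries, at 103, 85.04, 69.6 and 106 normalised CPM against 67.01, 67.1, 45.8 and 79.2, a difference of 0.49 ± 0.18 (SE, limma adjusted p = 0.0369). Its groups overlapped, since 1 eUB library was below the highest E11.5 UB library.

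The claudins split. *Cldn7* was at 398, 411, 369 and 387 normalised CPM in E11.5 UB and 305, 261, 217 and 252 in eUBs, with no overlap and a difference of -0.604 ± 0.10 (SE, limma adjusted p = 0.000537). *Cldn4*, the most abundant member per length, was at 1539, 1398, 1191 and 1305 normalised CPM in eUBs against 1425, 1499, 1010.2 and 1519, a difference of 0.01 ± 0.14 (SE, limma adjusted p = 0.97). The groups of *Cldn3* (212 to 367 against 206 to 221 normalised CPM) and of *Cldn6* (369 to 613 against 527 to 593) also overlapped, with differences of 0.26 ± 0.15 (SE, limma adjusted p = 0.159) and -0.35 ± 0.14 (SE, limma adjusted p = 0.0569). In both genes eUB replicate 1 was the highest of the 8 libraries. The splicing regulator *Esrp1* was at 353, 346, 362 and 355 normalised CPM in E11.5 UB and 190.1, 202, 208 and 207 in eUBs. Its groups did not overlap, and the difference was -0.81 ± 0.061 (SE, limma adjusted p = 3.24e-06).

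**Figure D2:**
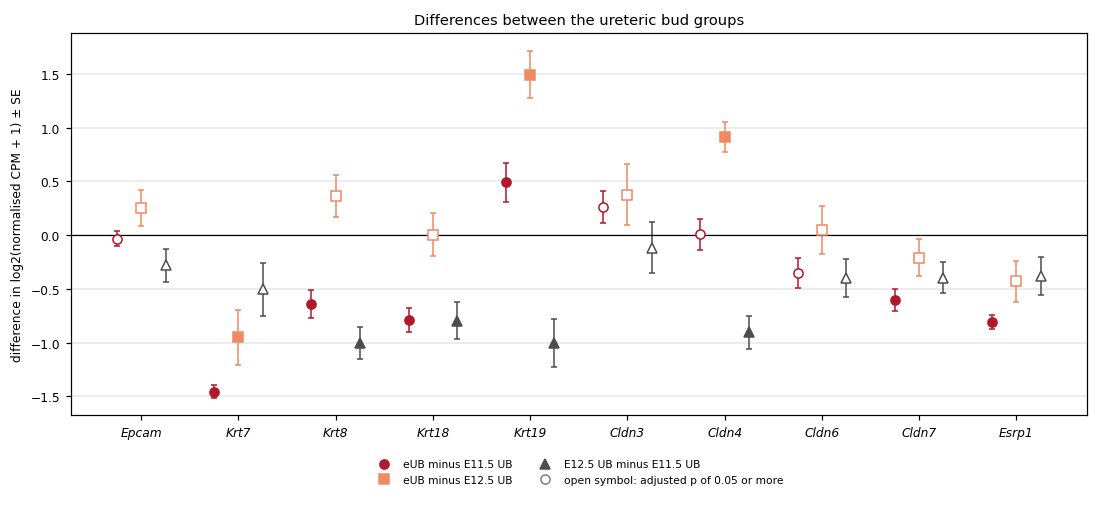
Differences on the log2(normalised CPM + 1) scale of each gene between the UB groups, eUB minus E11.5 UB, eUB minus E12.5 UB and E12.5 minus E11.5 UB, with bars of 1 SE and filled points where the gene was called. *Krt7* is the member furthest below 0 in eUBs at -1.46 against E11.5 UB, and *Krt19* the furthest above 0 at 1.495 against E12.5 UB.

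Set against the E12.5 UB, 3 of the 10 genes were called, while 44.4% of the 13872 genes tested were called, 23.3% higher and 21.2% lower. *Krt19* was higher in eUBs by 1.495 ± 0.22 (SE, limma adjusted p = 0.000785) and *Cldn4* by 0.91 ± 0.14 (SE, limma adjusted p = 0.000906), and these were the 2 genes whose groups did not overlap, against 42.6% of all genes tested. *Cldn4* stood at 592, 654, 869 and 788 normalised CPM in the E12.5 UB libraries and *Krt19* at 21.0001, 28.6, 36.1 and 43.4. *Krt7* was lower in eUBs by -0.95 ± 0.26 (SE, limma adjusted p = 0.0149), with 56.6, 112, 142 and 135 normalised CPM in the E12.5 UB libraries. Here replicate 1 overlapped the eUB range and the other 3 did not. Without E12.5 UB replicate 1, 5 genes were called, the added ones being *Cldn7* at -0.37 (limma adjusted p = 0.0246) and *Esrp1* at -0.65 (limma adjusted p = 0.000113).

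Between the 2 ages of ex-fetu UB as titled, 4 of the 10 genes were called and all 4 were lower in the samples titled E12.5, while 26.5% of the 13772 genes tested were called and 12.3% were lower. *Krt8* was at 374, 554, 573 and 675 normalised CPM in E12.5 UB, a difference of -1.005 ± 0.15 (SE, limma adjusted p = 0.00221), and *Krt18* at 384, 607, 619 and 752, a difference of -0.797 ± 0.17 (SE, limma adjusted p = 0.00963). The other 2 were *Cldn4*, at -0.91 ± 0.16 (SE, limma adjusted p = 0.00382), and *Krt19*, at -1.004 ± 0.22 (SE, limma adjusted p = 0.0114). With all 36 samples in the fit 2 genes were called. *Cldn4* and *Krt18* each lost their call under an alternative setting, while *Krt8* and *Krt19* kept theirs under all. The libraries of the ages did not overlap for 9 genes, all lower at E12.5, against 29.1% of all genes tested. In all 10 genes replicate 1 of E12.5, the library with the high NP and SP markers, had the lowest value of its group. *Epcam*, for example, was at 372, 603, 619.6 and 635 normalised CPM, *Cldn6* at 283, 443, 511 and 522, *Cldn7* at 209.8, 319, 352 and 329.7 and *Esrp1* at 173, 323, 319 and 307. Without that library 9 of the 10 genes were called. The differences of the 4 genes above remained between -0.84 (limma adjusted p = 2.33e-06) for *Krt8* and -0.604 (limma adjusted p = 3.84e-05) for *Krt18*, and *Cldn3*, at 109, 231, 252 and 247 normalised CPM, turned from -0.12 to 0.17 (limma adjusted p = 0.0182), higher at E12.5.

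In the mesenchymal cells the genes were detected at a small part of their UB level. Taking the UB group of the same source as 100%, the 8 genes other than *Epcam* and *Krt19* had group means of 0.125% to 2.44% in E11.5 NP, 0.382% to 2.88% in E12.5 NP and 0.197% to 2.77% in iNP cells. In the SP groups these means were 1.20% to 2.53% at E11.5, 0.113% to 0.803% at E12.5 and 0.0749% to 0.667% in iSP cells. In E12.5 NP, E12.5 SP and iNP cells the lower limit is that of *Krt7*. Without E12.5 UB replicate 1, E12.5 NP replicate 1, E11.5 SP replicate 3, E12.5 SP replicates 1 and 2, iNP replicate 2 and eUB replicate 1, the limits were 0.121% to 2.24% in E12.5 NP, 0.162% to 2.98% in iNP, 0.853% to 2.02% in E11.5 SP, 0.0227% to 0.768% in E12.5 SP and 0.0783% to 0.729% in iSP cells. *Krt19* differed from the rest, with 24.3% ± 4.92 in iNP cells, 19.4% ± 6.83 in E11.5 SP, 8.27% ± 1.602 in E12.5 SP, 6.03% ± 2.71 in E11.5 NP, 4.77% ± 1.34 in E12.5 NP and 3.07% ± 1.16 in iSP cells. *Epcam* reached 4.04% ± 0.737 in iNP cells and between 1.11% and 2.26% in the other mesenchymal groups. Measured in the same way, the UB gene *Wnt9b* was at 1.25% ± 0.737 in E11.5 SP and *Ret*, whose product was a gate of the UB sort, at 5.38% ± 2.64. The other listed UB markers varied widely in E11.5 SP. *Lhx1*, *Pax2* and *Emx2* were at 1.44%, 2.11% and 3.43%. *Gata3*, *Hoxb7*, *Etv5*, *Sox9* and *Wnt11* were at 16.7%, 19.5%, 45.3%, 154% and 158%.

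**Figure D3:**
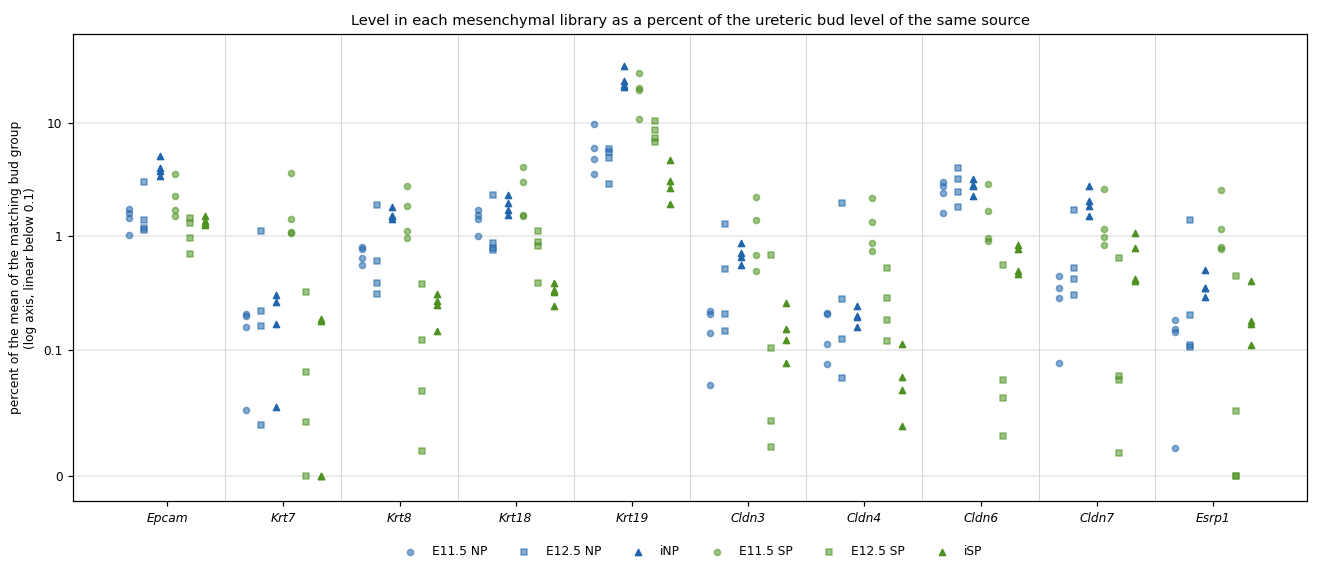
Level of each gene in each of the 24 mesenchymal libraries as a percent of the mean of the UB group of the same source, on a log axis that is linear below 0.1. Most points lie under 5%, and *Krt19* is set apart by its iNP libraries (mean 24.3%) and E11.5 SP libraries (mean 19.4%).

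*Krt19* also had an order of its own among the mesenchymal groups. It was at 18.8, 28.7, 19.8 and 21.3 normalised CPM in iNP cells, 17.8, 12.6, 12.99 and 6.97 in E11.5 SP and 6.35, 3.86, 3.11 and 2.29 in E11.5 NP. In the remaining groups it was at 4.25, 2.3998, 2.77 and 1.76 in iSP, 2.17, 3.35, 2.77 and 2.39 in E12.5 SP and 0.923, 1.57, 1.77 and 1.904 in E12.5 NP. Only the iNP libraries lay above all other mesenchymal libraries, and the lowest of them, 18.8, was close to the highest of E11.5 SP, 17.8. For 7 of the 10 genes, all but *Krt19*, *Epcam* and *Cldn6*, E11.5 SP had the highest mean of the 6 mesenchymal groups. Without E11.5 SP replicate 3 this held for 5 genes, since *Cldn7* and *Cldn3*, at means of 3.902 and 1.84 normalised CPM, were then below iNP cells at 5.28 and 1.86. *Krt18*, for example, was at 30.1, 15.5, 40.4 and 14.95 normalised CPM there and at 10.1, 14.3, 16.8 and 15.3 in E11.5 NP. *Cldn6* was high in the NP groups instead, with 9.001, 15.6, 13.6 and 16.9 normalised CPM in E11.5 NP, 17.6, 14.1, 8.04 and 10.9 in E12.5 NP and 10.2, 14.5, 12.8 and 12.5 in iNP cells, 3 groups whose ranges overlapped. *Krt7* was at the limit of detection in much of the mesenchyme: it had 3 reads or fewer in all 4 iSP libraries, with 0 reads in 2 of them, and in 3 of the 4 E12.5 SP libraries. *Esrp1* had 3 reads or fewer in the same number of E12.5 SP libraries, with 0 reads in 2 of them.

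Compared with E11.5 NP, iNP cells had higher levels of 5 of the 8 genes that passed the filter on low values, and none was called lower, while 64.7% of the 14064 genes tested were called and 35.5% were higher. *Krt7* and *Esrp1* were too low to be tested. The 4 iNP libraries held *Epcam* at 21.9, 33.02, 25.8 and 24.2 normalised CPM and the E11.5 NP libraries at 6.74, 10.6, 11.4 and 9.57, a difference of 1.37 ± 0.17 (SE, limma adjusted p = 9.50e-05). The difference of *Krt19* was 2.28 ± 0.24 (SE, limma adjusted p = 2.47e-05). *Cldn7*, at 4.82, 7.15, 5.301 and 3.87 normalised CPM in iNP against 0.351, 1.11, 1.75 and 1.37, differed by 1.57 ± 0.23 (SE, limma adjusted p = 0.000233), *Cldn3* by 1.09 ± 0.13 (SE, limma adjusted p = 6.01e-05) and *Krt8* by 0.51 ± 0.14 (SE, limma adjusted p = 0.00805). For these 5 genes every iNP library was above every E11.5 NP library, against 62.4% of all genes tested whose groups did not overlap. *Cldn3* and *Cldn7* passed the filter only through iNP cells, and 3 of the 6 other genes were called. Without iNP replicate 2, 4 of 7 genes were called higher and *Krt18* lower, at -0.44 (limma adjusted p = 0.0291), and *Cldn3* was no longer tested. Without E11.5 NP replicate 1, the same 5 genes as in the full comparison were higher and *Krt18* was lower, at -0.48 (limma adjusted p = 0.0194). EpCAM itself was gated out of both sorts. *Krt18* (-0.34 ± 0.17 (SE, limma adjusted p = 0.105)), *Cldn4* (0.29 ± 0.20 (SE, limma adjusted p = 0.228)) and *Cldn6* (-0.11 ± 0.19 (SE, limma adjusted p = 0.635)) were not called. The call of *Krt8* was lost with all 36 samples in the fit and with quantile normalisation, where its difference was 0.1371 (limma adjusted p = 0.462). Markers of other cells differed in the same comparison. The 7 markers of the early nephron epithelium, all at 1 or more in both groups, summed to between 631 and 781 normalised CPM per iNP library and between 169 and 359 per E11.5 NP library. The 6 neural markers, of which 6 reached 1 among iNP cells and 2 among E11.5 NP cells, summed to 46.3 to 71.5 against 5.81 to 10.5, and the 5 surface ectoderm markers to 6.88 to 8.79 against 0.342 to 1.05, the latter nearly all *Tfap2a* with Trp63, *Krt5* and Krt14 under 0.1 in both groups. The 6 pluripotency markers summed to 4.55 to 7.67 against 0.554 to 1.14, the 6 endoderm and gut markers to 3.37 to 5.804 against 0.479 to 1.52 and the 6 mesothelial markers to 4.42 to 5.63 against 1.403 to 2.32. Their part in the higher levels was not tested.

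Against E12.5 NP, 4 of the 8 genes tested were called, all higher in iNP cells, while 44.3% of all genes were called and 25.6% were higher. *Krt19*, *Cldn3* and *Cldn7* passed the filter only through iNP cells, and 2 of the 5 other genes were called. The 4 were *Krt19* at 3.19 ± 0.19 (SE, limma adjusted p = 1.07e-06), *Epcam* at 1.48 ± 0.28 (SE, limma adjusted p = 0.00189), *Krt8* at 1.41 ± 0.39 (SE, limma adjusted p = 0.0142) and *Cldn7* at 1.09 ± 0.33 (SE, limma adjusted p = 0.0233). *Krt19* and *Epcam* were the 2 genes without overlap, against 44.0% of all genes. E12.5 NP replicate 1 held the highest value of its group in 9 of the 10 genes, such as 16.9, 7.72, 6.38 and 6.61 normalised CPM for *Epcam* and 14.2, 2.04, 0.906 and 0.566 for *Cldn4*. *Krt19* was the exception, with 0.923 normalised CPM in that library as the lowest of the 4. Without that library 7 genes were called, with *Krt18* at 1.03 (limma adjusted p = 0.000841), *Cldn3* at 0.85 (limma adjusted p = 0.006) and *Cldn4* at 0.82 (limma adjusted p = 0.0179) added. Without iNP replicate 2 it was 3, *Cldn7* being lost. The early nephron markers were at 348 to 512 normalised CPM in E12.5 NP libraries, the neural markers at 1.91 to 4.12, the surface ectoderm markers at 0.453 to 2.43 and the endothelial markers at 6.65 to 25.2, all below the iNP libraries, and their part was not tested.

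In iSP cells all 10 genes were lower than in E11.5 SP cells, while 67.6% of the 13916 genes tested were called and 32.1% were lower. *Krt7*, *Cldn3*, *Cldn4* and *Esrp1* passed the filter only through E11.5 SP, where they are high, and the first, second and last of these were under 1 normalised CPM in every iSP library. All 6 other genes were called lower. No library of one group overlapped the other for any of the 10, against 62.2% of all genes. *Cldn4* fell from 18.3, 11.99, 29.7 and 10.2 normalised CPM in E11.5 SP to 1.06, 1.54, 0.923 and 0.541 in iSP cells, a difference of -3.11 ± 0.30 (SE, limma adjusted p = 1.47e-05). *Krt18* differed by -3.08 ± 0.29 (SE, limma adjusted p = 1.44e-05) and *Krt8* by -2.71 ± 0.30 (SE, limma adjusted p = 3.64e-05), with *Krt8* at 19.7, 11.8, 29.9 and 10.4 normalised CPM in E11.5 SP and 2.17, 1.72, 1.88 and 1.01 in iSP cells. The smallest difference was that of *Epcam*, at 15.05, 11.3, 23.4 and 10.01 normalised CPM in E11.5 SP and 9.81, 8.52, 8.94 and 8.11 in iSP cells, or -0.63 ± 0.22 (SE, limma adjusted p = 0.0312). In the same libraries *Wnt9b* was at 2.29 to 7.15 normalised CPM in E11.5 SP and at most 0.111 in iSP cells, and *Ret* at 6.22 to 29.1 against at most 1.08. The mesothelial gene *Upk3b* was at 2.497 to 4.74 against at most 0.135, and the 6 mesothelial markers summed to 10.04 to 18.02 against 1.72 to 1.98. Their part was not tested. Without E11.5 SP replicate 3, the highest library for all members but *Krt19*, 7 genes could be tested and all 7 were called lower. Without replicate 1, 6 of 7 were called, *Epcam* being lost.

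Against E12.5 SP there was no common direction, and 4 of the 7 genes tested were called, 3 higher and 1 lower in iSP cells, while 62.1% of all genes were called, 33.3% higher and 28.8% lower. *Cldn4*, *Cldn6*, *Cldn7* and *Krt8* passed the filter only through the group where they were highest, and 2 of the 3 other genes were called. *Cldn6* was higher by 1.25 ± 0.33 (SE, limma adjusted p = 0.00904), *Cldn7* by 0.84 ± 0.33 (SE, limma adjusted p = 0.05) and *Epcam* by 0.49 ± 0.19 (SE, limma adjusted p = 0.0441), and *Krt18* was lower by -0.94 ± 0.24 (SE, limma adjusted p = 0.00695). *Krt18* alone had groups that did not overlap, 2.27, 1.86, 1.96 and 1.42 normalised CPM in iSP and 2.28, 6.57, 5.26 and 4.86 in E12.5 SP cells, against 58.0% of all genes. The count was sensitive, rising to 5 without E12.5 SP replicate 2 and falling to 3 without E12.5 SP replicate 1, to 2 without any single iSP library or without E12.5 SP replicate 3, and to 2 with the replicate number as a block.

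With age, the 2 mesenchymal types differed in their counts. In SP cells 9 of the 10 genes were lower at E12.5 than at E11.5, while only 8.52% of the 13633 genes tested were called and 4.8% were lower. The same number of genes had groups without overlap, against 15.6% of all genes. All but *Epcam*, *Krt18* and *Krt19* passed the filter only through E11.5 SP, and these 3 genes were all called lower. *Krt8* was at 0.108, 2.06, 0.669 and 0.367 normalised CPM in E12.5 SP, a difference of -3.39 ± 0.38 (SE, limma adjusted p = 0.002) from E11.5 SP. *Cldn4* differed by -2.596 ± 0.36 (SE, limma adjusted p = 0.00442), *Cldn6* by -2.51 ± 0.41 (SE, limma adjusted p = 0.00786) and *Krt19* by -1.83 ± 0.25 (SE, limma adjusted p = 0.00363). *Cldn3*, at -1.28 ± 0.37 (SE, limma adjusted p = 0.0606), was not called. Without E11.5 SP replicate 3, 7 of 9 genes tested were called, and without either replicate 1 or replicate 2 of E12.5 SP the count was 9. Other markers moved in the same libraries: *Wnt9b* was at 2.29 to 7.15 normalised CPM in E11.5 SP and 0 to 0.746 in E12.5 SP, *Ret* at 6.22 to 29.1 and 3.49 to 5.31, and *Upk3b* at 2.497 to 4.74 and 0 to 0.0956. The 10 UB markers summed to 442.9 to 638.9 normalised CPM at E11.5 and 235 to 351 at E12.5. That sum is not specific to UB cells, since it includes *Wnt11*, *Sox9* and *Etv5*, at 158%, 154% and 45.3% of their UB level in E11.5 SP. The 5 trophoblast markers summed to 82.5 to 174 and 21.7 to 100.8, while the 6 mesothelial markers overlapped at 10.04 to 18.02 and 9.68 to 18.4. Their part was not tested. In NP cells none of the 7 genes tested was called by limma, while 6.34% of all genes were. *Krt19*, *Krt18* and *Krt8* had an unadjusted p under 0.05, with differences of -0.902 ± 0.24 (SE, limma adjusted p = 0.0595), -1.04 ± 0.31 (SE, limma adjusted p = 0.0792) and -0.901 ± 0.39 (SE, limma adjusted p = 0.2). Both edgeR and DESeq2 called 1 gene, while they called 6.42% and 14.3% of all genes, and without E12.5 NP replicate 1 limma called 2, *Krt8* at -1.34 (limma adjusted p = 0.00344) and *Krt18* at -1.38 (limma adjusted p = 0.00211). *Krt19* was the only member without overlap, against 17.0% of all genes. A difference between the NP and SP changes with age was not tested.

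NP and SP cells were compared at each age and in mESC-derived cells. At E11.5, 7 of the 10 genes were lower in NP than in SP cells and none higher, while 43.1% of all genes tested were called and 22.2% were lower in NP. *Krt7*, *Cldn3*, *Cldn7* and *Esrp1* passed the filter only through SP cells, and 3 of the 6 other genes were called lower, namely *Krt8*, *Krt19* and *Cldn4*. *Epcam*, *Krt18* and *Cldn6* were not called, *Cldn6* having a difference of 0.65 ± 0.33 (SE, limma adjusted p = 0.134). The groups did not overlap for 7 genes, all lower, against 41.8% of all genes. *Wnt9b* was at 0.195 to 0.537 normalised CPM in E11.5 NP and 2.29 to 7.15 in E11.5 SP, *Upk3b* at 0 to 0.0779 and 2.497 to 4.74, the summed mesothelial markers at 1.403 to 2.32 and 10.04 to 18.02, and the summed trophoblast markers at 12.4 to 52.3 and 82.5 to 174. The largest differences were those of *Cldn4*, -2.51 ± 0.32 (SE, limma adjusted p = 0.000202), and *Esrp1*, -1.87 ± 0.30 (SE, limma adjusted p = 0.000845). In mESC-derived cells all 8 genes tested were higher in iNP than in iSP cells, without overlap, while 30.7% of all genes were called, 16.5% were higher, and 37.6% did not overlap. *Cldn3* and *Cldn4* passed the filter only through iNP cells, and all 6 other genes were called. Without iNP replicate 2, 7 genes could be tested and all 7 were called. *Krt19* differed by 2.63 ± 0.20 (SE, limma adjusted p = 1.06e-05), *Krt8* by 2.16 ± 0.15 (SE, limma adjusted p = 5.65e-06) and *Krt18* by 2.04 ± 0.14 (SE, limma adjusted p = 5.82e-06). The early nephron markers summed to between 631 and 781 normalised CPM in iNP and 45.2 to 72.1 in iSP cells, the neural markers to between 46.3 and 71.5 and 3.08 to 5.32, and the surface ectoderm markers to between 6.88 and 8.79 and 0.845 to 1.15. The part of these cells in either contrast was not tested. The test of the difference between the contrasts called all 10 genes, each more positive in mESC-derived cells, while 29.3% of all genes were called and 17.4% were more positive. *Krt7* and *Esrp1* entered it only through E11.5 SP, were too low to be tested in iNP against iSP, and have differences that rest on their level in E11.5 SP. The 8 other genes were all called. It ranged from 1.16 ± 0.39 (SE, limma adjusted p = 0.0354) for *Cldn6* to 4.099 ± 0.38 (SE, limma adjusted p = 6.84e-07) for *Krt19*. Without E11.5 SP replicate 3, 8 of the 9 genes tested were called. The contrasts at E11.5 were called for 5 of 7 genes without that library, with *Cldn6* then called higher in NP at 0.96 (limma adjusted p = 0.0189), and for 4 of 7 without replicate 1. Without iNP replicate 2 the difference was called for 9 of 10 genes, all but *Cldn6*.

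At E12.5, 3 of the 7 genes tested differed between NP and SP, while 34.8% of all genes were called, 17.0% higher and 17.8% lower in NP. Only *Epcam* and *Krt18* passed the filter outside the group where they were highest, and neither was called. *Cldn6* was higher in NP by 3.04 ± 0.36 (SE, limma adjusted p = 0.000152), with 0.271, 2.44, 0.335 and 0.138 normalised CPM in E12.5 SP, and *Krt8* by 1.43 ± 0.46 (SE, limma adjusted p = 0.0394), and *Krt19* was lower by -0.54 ± 0.17 (SE, limma adjusted p = 0.0357). *Cldn6* and *Krt19* had groups that did not overlap, against 35.7% of all genes. Early nephron markers summed to 347.9 to 511.7 normalised CPM in E12.5 NP and 85.04 to 120.5 in E12.5 SP, and mesothelial markers to 3.17 to 4.34 and 9.68 to 18.4. Their part was not tested. The count of called genes fell to 1 without NP replicate 1, NP replicate 2, SP replicate 3 or SP replicate 4. Without both NP replicate 1 and SP replicate 2, only 3 genes could still be tested, since the filter asks for 4 libraries, and none was called. The difference between the mESC-derived and E12.5 contrasts was called for 3 of 8 genes, while 23.8% of all genes were called, 14.5% more positive and 9.35% more negative. It was 3.17 ± 0.28 (SE, limma adjusted p = 3.00e-07) for *Krt19*, 1.63 ± 0.41 (SE, limma adjusted p = 0.0075) for *Krt18* and -1.23 ± 0.43 (SE, limma adjusted p = 0.0476) for *Cldn6*, the last more negative in mESC-derived cells. It was called for 5 genes without E12.5 NP replicate 1.

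**Figure D4:**
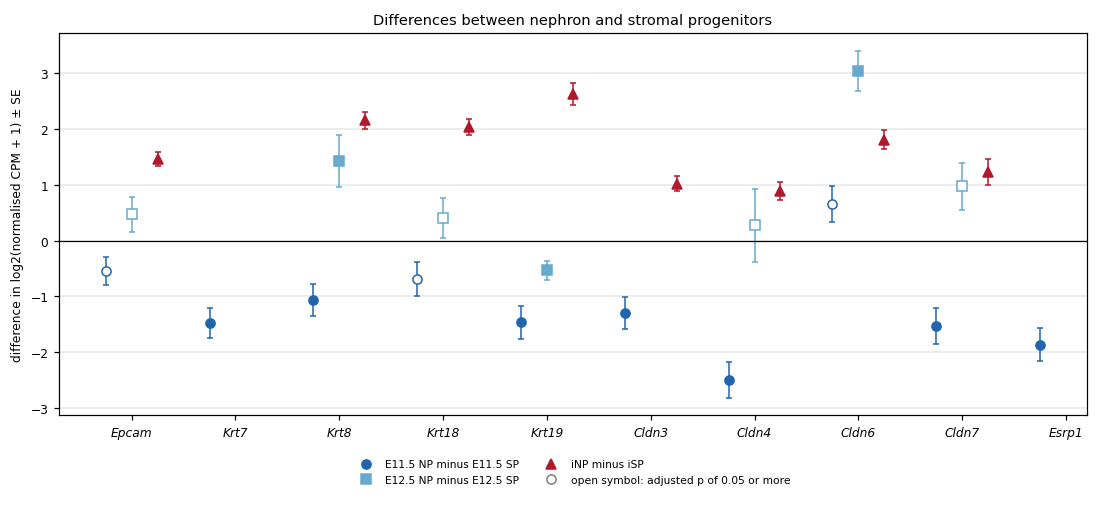
Differences on the log2(normalised CPM + 1) scale between NP and SP cells for each gene at E11.5, at E12.5 and in mESC-derived cells (NP minus SP), with bars of 1 SE and filled points where the gene was called. All 8 tested genes are above 0 in mESC-derived cells, 7 are called below 0 at E11.5, and *Cldn6* stands furthest above 0 at E12.5 (3.04).

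The difference between UB and mesenchyme was itself compared between mESC-derived and ex-fetu cells. Against E11.5 it was called for 4 of 9 genes, while 49.6% of all genes were called, 24.1% with a larger and 25.5% with a smaller value in mESC-derived cells. It was larger in mESC-derived cells for *Cldn4*, with a change of 1.42 ± 0.29 (SE, limma adjusted p = 0.000368), and *Krt18*, with 0.92 ± 0.27 (SE, limma adjusted p = 0.00761), and smaller for *Cldn7*, with -0.796 ± 0.31 (SE, limma adjusted p = 0.0383). For *Krt7* it was -0.53 ± 0.22 (SE, limma adjusted p = 0.0493), but 0.92 with a pseudocount of 0.1, 1.93 with edgeR and 2.02 with DESeq2, so no direction is given. *Krt7* had 3 reads or fewer in 5 of the 8 mESC-derived mesenchymal libraries. The count was 2 when any 1 of 14 libraries was left out. Against E12.5 it was called for *Cldn7*, -1.18 ± 0.40 (SE, limma adjusted p = 0.022), and *Krt7*, -0.76 ± 0.28 (SE, limma adjusted p = 0.0336), or 2 of 9 genes, while 39.4% of all genes were called and 21.7% were more negative. The value of *Krt7* was 0.84 with edgeR and 0.78 with DESeq2. Neither tool called any of the 9, while they called 37.5% and 39.8% of all genes, and the count was 0 without eUB replicate 3, 1 without any 1 of 5 other libraries, 4 without E12.5 NP replicate 1 and 5 without UB replicate 1, NP replicate 1 and SP replicate 2 of E12.5.

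The keratin partners *Krt8* and *Krt18* kept a nearly fixed ratio within each UB group and had a lower one in ex-fetu mesenchyme. Per kilobase, *Krt8* over *Krt18* was 0.787 ± 0.00596 in E11.5 UB, 0.681 ± 0.0245 in E12.5 UB and 0.875 ± 0.0336 in eUBs, with no overlap among the 3 groups. It was 0.746 ± 0.0672 in iNP and 0.653 ± 0.0866 in iSP cells, but 0.391 ± 0.0536 in E11.5 NP, 0.407 ± 0.127 in E12.5 NP, 0.523 ± 0.0365 in E11.5 SP and 0.103 ± 0.0876 in E12.5 SP, where *Krt8* was between 0.108 and 2.06 normalised CPM. The E12.5 SP mean is uncertain, since *Krt8* had only 2 reads in replicate 1 and the ratio was 0.230 in replicate 2. Without these replicates it was 0.0744. The ratio of the neighbours *Cldn4* and *Cldn3* was 4.37 ± 0.659 in E11.5 UB, 3.66 ± 0.4996 in eUBs and 2.58 ± 0.813 in E12.5 UB. Without the libraries that stood apart these means were 3.91 in eUBs and 2.19 in E12.5 UB. In the mesenchyme the ratio was 1.02 ± 0.186 in iNP, 1.89 ± 0.976 in iSP and 1.93 ± 1.17 in E12.5 NP cells (1.35 without replicate 1), while 4.62 ± 1.74 in E11.5 NP and 5.195 ± 1.14 in E11.5 SP cells overlapped E11.5 UB. No ratio is given for E12.5 SP, where *Cldn3* was near the limit of detection in 3 of the 4 libraries. These ratios were not tested.

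Over the means of the 9 groups, the pattern of 9 members was nearly the same, with Pearson's r between pairs of 0.943 to 0.997, while pairs with *Krt19* had r of 0.841 to 0.919. These values describe 9 points that fall into a UB and a mesenchymal cluster, and carry no test. Among 11291 other genes, those among the 3 most similar by the same measure included *St14* (r = 0.997), *Spint1* and *Eps8l2* for *Epcam*, *Wnt9b* (0.9986), *Mal* and *Wnt7b* for *Krt7*, *Fzd6* (0.990), *Kcnk1* and *Fgd2* for *Krt8*, and *Calcr* (0.988) and *Snx24* for *Krt18*. For the claudins they included *Ap1m2* (0.9986), *Grhl2* and *St14* for *Cldn3*, *Foxq1* (0.995), *Fev* and *F2rl1* for *Cldn4*, *Map7d2* (0.998), *Fam84b* and *Ctnnd2* for *Cldn6*, and *Crb3* (0.998), *Cdh16* and *St14* for *Cldn7*. Those of *Esrp1* were *Mal* (0.998), *Mal2* and *Fev*, and those of *Krt19* included *Fam83g* (0.980) and *Ctsd*.

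Between UB and mesenchyme, 4 further lists of epithelial genes were counted, against the shares of 26.9%, 20.9% and 30.3% of all genes higher and 29.5%, 19.4% and 32.6% lower in the UB at E11.5, at E12.5 and in mESC-derived cells. Of 23 further adhesion and junction genes, 22 were higher in the UB in each of the 3 contrasts, and of 20 further epithelial regulators and enzymes 20, 18 and 19 were, with 1 gene of each list lower in eUBs. Of the other claudins tested 4 of 7, 5 of 8 and 6 of 8 were higher and 2, 1 and 2 lower, and of the other keratins tested 4 of 6, 2 of 4 and 1 of 2 were higher and none lower. Without genes that passed the filter only through their highest group, 16 of 17, 14 of 15 and 14 of 15 adhesion and junction genes and 13 of 13, 12 of 13 and 14 of 15 regulators and enzymes were higher. The same counts were 2 of 4, 2 of 4 and 4 of 5 for the claudins and none of 1 keratin in each contrast. *Grhl2*, a known activator of claudin and cadherin genes, was at 91.4 ± 2.97 normalised CPM in E11.5 UB and 114 ± 19.1 in eUBs, and *Ovol2*, a repressor of *Zeb1*, at 29.6 ± 2.82 and 15.4 ± 2.495. *Grhl2* differed between eUBs and E11.5 UB by 0.298 ± 0.12 (SE, limma adjusted p = 0.0512), *Ovol2* by -0.904 ± 0.12 (SE, limma adjusted p = 0.000119) and *Esrp2*, the paralogue of *Esrp1*, by -0.28 ± 0.13 (SE, limma adjusted p = 0.0781). Of 12 repressors of the epithelial state and mesenchymal genes, 12, 11 and 10 were lower in the UB and none higher. The repressor genes *Zeb1* and *Zeb2* differed by -5.43 ± 0.10 (SE, limma adjusted p = 1.69e-13) and -4.23 ± 0.10 (SE, limma adjusted p = 1.17e-12) at E11.5 and by -5.43 ± 0.20 (SE, limma adjusted p = 6.05e-11) and -3.43 ± 0.24 (SE, limma adjusted p = 4.16e-08) in mESC-derived cells.

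Between eUBs and E11.5 UB, 14 of the 23 adhesion and junction genes were lower in eUBs and 4 higher, and 9 of the 20 regulators and enzymes were lower and 2 higher, where 28.5% of all genes were lower and 32.1% higher. Against E12.5 UB, 7 and 6 were lower and 3 and 1 higher, where 21.2% of all genes were lower and 23.3% higher. Among the 4 with the smallest p in the first list were the desmosomal genes *Jup* at -1.27 ± 0.096 (SE, limma adjusted p = 3.26e-06) and *Pkp2* at -1.03 ± 0.084 (SE, limma adjusted p = 4.78e-06), and *F11r*, a tight junction adhesion gene, at -1.06 ± 0.093 (SE, limma adjusted p = 7.96e-06). In the second, *Grhl1* differed by -2.23 ± 0.10 (SE, limma adjusted p = 1.61e-07), *Llgl2*, a polarity gene, by -0.84 ± 0.062 (SE, limma adjusted p = 2.81e-06) and *Tfcp2l1* by -1.08 ± 0.14 (SE, limma adjusted p = 8.58e-05). Of 16 other claudins 14 were listed and 7 could be tested, with 3 called higher in eUBs and 2 lower. The smallest p were those of *Cldn11* at 2.34 ± 0.23 (SE, limma adjusted p = 1.48e-05), *Cldn23* at 1.68 ± 0.18 (SE, limma adjusted p = 2.57e-05), *Cldn9* at 1.03 ± 0.18 (SE, limma adjusted p = 0.000688) and *Cldn8* at -1.61 ± 0.17 (SE, limma adjusted p = 2.75e-05). Of 12 other keratins 10 were listed and 6 tested, with *Krt23* higher at 2.29 ± 0.13 (SE, limma adjusted p = 4.57e-07), and *Krt80* at -2.27 ± 0.17 (SE, limma adjusted p = 2.71e-06), *Krt5* at -2.12 ± 0.43 (SE, limma adjusted p = 0.00186) and *Krt20* at -2.02 ± 0.14 (SE, limma adjusted p = 2.22e-06) lower. These 3 were under 1 normalised CPM in every eUB library and passed the filter only through E11.5 UB, and of the 2 keratins that passed outside their highest group 1 was higher and none lower. Of the 5 such claudins 2 were higher and 2 lower. Of the 12 mesenchymal genes and repressors 6 were higher and 5 lower. Against E12.5 UB 1 was higher and 1 lower, where 23.3% of all genes were higher and 21.2% lower. That comparison includes E12.5 UB replicate 1, with summed SP markers of 321 normalised CPM, and its counts without this library are not given. *Cdh2*, which encodes N-cadherin, was higher in eUBs by 3.64 ± 0.11 (SE, limma adjusted p = 1.92e-08) and the transcription factor genes *Twist1* and *Twist2* by 1.95 ± 0.13 (SE, limma adjusted p = 1.22e-06) and 1.47 ± 0.15 (SE, limma adjusted p = 2.60e-05). *Col1a1*, a fibrillar collagen gene, was lower by -1.99 ± 0.12 (SE, limma adjusted p = 6.28e-07), *Zeb2* by -0.62 ± 0.17 (SE, limma adjusted p = 0.0108), and *Zeb1*, at -0.41 ± 0.21 (SE, limma adjusted p = 0.118), was not called.

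In iNP against E11.5 NP cells, 8 of the 17 adhesion and junction genes tested were higher and 5 lower, and 10 of 15 regulators and enzymes were higher and 1 lower, where 35.5% of all genes were higher and 29.2% lower. Without the 5 genes of each list that passed the filter only through 1 group, 6 of 12 and 6 of 10 were higher and 3 and 1 lower. Against E12.5 NP, 5 of 15 and 8 of 15 were higher and 2 and 1 lower, where 25.6% of all genes were higher and 18.7% lower. Without the 2 adhesion and junction genes that passed the filter only through 1 group, 5 of 13 were higher and 2 lower. This count is not given for the regulators and enzymes. *Cdh1*, which encodes E-cadherin, rose from 1.71 ± 0.432 to 13.03 ± 2.22 normalised CPM, a difference of 2.37 ± 0.16 (SE, limma adjusted p = 1.72e-06), and remained far below its level in eUBs, 614 ± 44.4. The polarity gene *Crb3* was higher by 1.01 ± 0.14 (SE, limma adjusted p = 0.000135), and *Pkp2* and *Marveld2*, a tight junction gene, were lower by -0.93 ± 0.12 (SE, limma adjusted p = 8.63e-05) and -0.98 ± 0.14 (SE, limma adjusted p = 0.000159). Among the regulators *Tfap2a* differed by 2.45 ± 0.15 (SE, limma adjusted p = 9.81e-07), *Elf3* by 1.81 ± 0.14 (SE, limma adjusted p = 4.37e-06) and *Spint1*, a protease inhibitor gene of epithelia, by 1.62 ± 0.15 (SE, limma adjusted p = 1.41e-05). Of the 6 other claudins tested, *Cldn5*, the claudin of endothelium, was higher by 3.49 ± 0.31 (SE, limma adjusted p = 9.37e-06) and *Cldn10* by 1.31 ± 0.10 (SE, limma adjusted p = 4.12e-06), both of which passed the filter only through iNP cells, while *Cldn9* was lower by -1.47 ± 0.15 (SE, limma adjusted p = 1.96e-05). The summed 5 endothelial markers, all at 1 or more in iNP cells, lay between 43.1 and 72.9 normalised CPM per iNP library and between 8.24 and 24.1 per E11.5 NP library, from cells sorted against CD31, and their part was not tested. Of the repressors and mesenchymal genes 5 were higher and 2 lower, with *Twist1* at 2.85 ± 0.15 (SE, limma adjusted p = 4.78e-07), *Snai1* at 3.23 ± 0.34 (SE, limma adjusted p = 2.64e-05) and *Zeb1* at -1.07 ± 0.21 (SE, limma adjusted p = 0.00143), and *Zeb2*, at -0.44 ± 0.27 (SE, limma adjusted p = 0.168), not called. In iSP against E11.5 SP cells, 12 of 15 adhesion and junction genes tested were lower and 1 higher, where 32.1% of all genes were lower and 35.5% higher. Of the 15, 8 passed the filter only through the group where they were highest, and 4 of the other 7 were lower and 1 higher. Against E12.5 SP, 4 of 9 were lower and 3 higher, where 28.8% of all genes were lower and 33.3% higher. Of the 5 that passed the filter outside the group where they were highest, 2 were lower and 1 higher. Among those lower than in E11.5 SP were *Pkp2* at -2.52 ± 0.32 (SE, limma adjusted p = 9.27e-05), *Perp* at -1.30 ± 0.14 (SE, limma adjusted p = 3.33e-05) and *F11r* at -1.26 ± 0.11 (SE, limma adjusted p = 9.20e-06). Of 10 regulators and enzymes tested 4 were higher, led by *Elf3* at 1.79 ± 0.21 (SE, limma adjusted p = 5.19e-05), and 2 lower. Against E12.5 SP 8 of 10 were higher and none lower, where 33.3% of all genes were higher and 28.8% lower. Counts of these regulators and enzymes without genes that passed the filter only through 1 group are not given. Of the 12 repressors and mesenchymal genes 4 were higher and 7 lower in iSP than in E11.5 SP cells, where 35.5% of all genes were higher and 32.1% lower. Against E12.5 SP 2 were higher and 6 lower, where 33.3% of all genes were higher and 28.8% lower. *Zeb2* was lower in iSP than in E11.5 SP cells by -2.40 ± 0.16 (SE, limma adjusted p = 1.64e-06) and *Zeb1* was higher by 0.24 ± 0.080 (SE, limma adjusted p = 0.0206). In iNP against iSP cells, 14 of the 15 adhesion and junction genes tested were higher in iNP and none lower, where 16.5% of all genes were higher. Of these 15, 8 passed the filter only through iNP or iSP cells, and 6 of the other 7 were higher. In ex-fetu cells, 4 of 17 were higher and 4 lower in NP than in SP at E11.5, where 21.0% of all genes were higher and 22.2% lower. At E12.5, 8 of 15 were higher and 2 lower, where 17.0% of all genes were higher and 17.8% lower. Without genes that passed the filter only through 1 group, 3 of 12 were higher and 2 lower at E11.5, and 2 of 6 were higher and 1 lower at E12.5.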

How the data were processed

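RNA sequencing values of 36 samples (9 groups of 4) were used, with groups and replicate numbers from the sample titles. The authors sequenced stranded mRNA libraries as read pairs, trimmed them with Cutadapt, aligned them with STAR to a genome written as GRCh38, and filtered and normalised counts with edgeR. All identifiers in the deposited table are mouse Ensembl identifiers, of which 22649 of 22761 (99.5%) are in GENCODE vM21. The counting program and its use of strand are not given in the sources used here. The deposited signal values are CPM that the authors scaled by edgeR normalisation factors (normalised CPM). Dividing each library by its smallest step gave whole read numbers for 100% of values (tolerance 0.01), which sum to 13.004 to 52.5 M reads on genes per library. The deposited fold changes on the log2 scale, p-values and FDR values of the authors' own edgeR comparisons were not used.

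A gene was tested where 4 or more libraries of a fit reached 1 normalised CPM, on log2(normalised CPM + 1), by limma 3.58.1 with a trended prior variance (R 4.3.3), on the libraries of the groups compared, with Benjamini-Hochberg adjustment over all genes tested and a threshold of 0.05. The deposited values being normalised, this replaced a count test. The scripts were tested on simulated data. Some genes and 1 sequence that these rules would name are not reported here. The members and all gene lists were chosen with earlier results of these data known. From each further list, at most 4 genes per cell type are named, those with the smallest p against the E11.5 group, and *Zeb1*, *Zeb2*, *Grhl2*, *Ovol2* and *Esrp2* always. For likeness the 3 genes with the highest r were named among those with a mean of at least 10 in 1 group. The replicate numbers paired samples only for E12.5 NP and SP, where the deviations of same-numbered samples from their group means correlated at 0.543 to 0.700 and all 4 correlated best with their own number. A block of the number changed no call there. Alternatives were a pseudocount of 0.1, no filter or one of 5 normalised CPM, all 36 samples in the fit, quantile normalisation, upper-quartile scaling, edgeR 4.0.16 and DESeq2 1.42.0 on the recovered reads, the block, and each library left out in turn. A fit without 3 libraries of E12.5 (UB replicate 1, NP replicate 1 and SP replicate 2) was added after the data had been seen, as were levels without 7 of the libraries that stood apart and counts without genes that passed the filter only through their highest group. Near copies were found with BLAST 2.17.0 (at least 90% identity over 500 bases), and other steps used Python 3.11.15. P-values measure the spread between pooled samples.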

Additional observations from a re-analysis of the deposited data

Results flagged for a closer look

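In groups of 4 libraries, the gap of the highest or lowest library from the next, over the range of the group, passed Dixon's 95% limit in 14 of 90 combinations of gene and group. Chance alone would give about 1 in 20. They fell in 4 libraries. In E12.5 UB replicate 1 the lowest values were *Epcam* at 372.0 normalised CPM, *Cldn3* at 108.6 and *Esrp1* at 173.2. In E12.5 NP replicate 1 the highest values were *Epcam* at 16.9, *Krt7* at 1.231, *Krt18* at 13.73, *Cldn4* at 14.19, *Cldn7* at 5.171 and *Esrp1* at 3.909. In E12.5 SP replicate 2 they were *Cldn3* at 1.431, *Cldn6* at 2.439, *Cldn7* at 1.935 and *Esrp1* at 1.25, and in E11.5 SP replicate 3 *Krt7* at 5.363. Marker genes of other cell types stood apart in the same libraries, as described above, though in the SP libraries this held for *Wnt9b* and not for *Ret*. Their part in these values was not tested.

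Several contrasts between cell types differed between mESC-derived and ex-fetu cells by limma's test of the difference, on the log2(normalised CPM + 1) scale. For UB against mesenchyme, mESC-derived minus E11.5, these were *Cldn4* at 1.418, *Krt18* at 0.9188, *Krt7* at -0.5286 and *Cldn7* at -0.7961, and against E12.5 *Krt7* at -0.7561 and *Cldn7* at -1.175. For NP against SP, mESC-derived minus E11.5, all 10 genes differed: *Krt19* at 4.099, *Cldn4* at 3.396, *Krt8* at 3.222, *Cldn7* at 2.763, *Krt18* at 2.732, *Cldn3* at 2.321, *Esrp1* at 2.168, *Epcam* at 1.998, *Krt7* at 1.556 and *Cldn6* at 1.156. *Krt7* and *Esrp1* passed the filter of this test only through E11.5 SP. Against E12.5 they were *Krt19* at 3.166, *Krt18* at 1.633 and *Cldn6* at -1.226. The direction of *Krt7* in the first contrast turned with other settings, which are given in the next part.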

How the results depend on the processing

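Of the single-gene results recomputed under the alternatives, 3035 kept their direction and their side of the threshold, 163 lost and 59 gained a call, and 6 with a call reversed. A further 65 values, in 18 results, changed sign with no call under either setting. Counts of called genes stayed within 1.5 times in 322 cases and moved beyond it in 65. The 6 reversals with a call concern 2 genes. For *Krt7*, the mESC-derived minus E11.5 difference of the UB against mesenchyme contrast was 0.9159 with a pseudocount of 0.1, 1.927 with edgeR and 2.02 with DESeq2, and the difference from E12.5 was 0.8357 with edgeR and 0.7771 with DESeq2. *Krt7* was at or under the limit of 3 reads in much of the mesenchyme, where depth limits what can be measured. For *Cldn3*, E12.5 minus E11.5 UB ranged from -0.2284 to 0.1733 over the left-out libraries, the latter without E12.5 UB replicate 1.

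The cause of the following moves was not tested, except that the filters and left-out libraries remove genes from the test. With all 36 samples in the fit, the count was 3 in eUB against E11.5 UB, 2 in E12.5 against E11.5 UB, 2 in E12.5 against E11.5 NP, and 2 in the UB against mesenchyme difference from E11.5. With the filter of 5 it was 3 in iNP against E11.5 NP, 6 in iSP against E11.5 SP, 1 in iSP against E12.5 SP, 3 in E11.5 NP against SP, 1 in E12.5 NP against SP, 5 in iNP against iSP and 6 in the NP against SP difference from E11.5. With no filter it was 2 in iSP against E12.5 SP and 1 in E12.5 NP against SP. With edgeR it was 2 in iNP against E12.5 NP, 1 in iSP against E12.5 SP, 1 in E12.5 against E11.5 NP and 0 in the UB against mesenchyme difference from E12.5. With DESeq2 it was 2, 1 and 0 in the last 3 of these. With quantile normalisation it was 2 in iSP against E12.5 SP and 0 in the UB against mesenchyme difference from E12.5. A pseudocount of 0.1 gave 2 and 1 in that difference from E11.5 and E12.5. Without the 3 libraries of E12.5, an alternative chosen after the data had been seen, the counts were 0 in E12.5 NP against SP, 5 in the UB against mesenchyme and 6 in the NP against SP difference from E12.5.

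Leaving out 1 library at a time gave counts of 5 to 7 in eUB against E11.5 UB, 3 to 5 against E12.5 UB, 4 to 6 in iNP against E11.5 NP, 3 to 7 against E12.5 NP, 6 to 10 in iSP against E11.5 SP, 2 to 5 against E12.5 SP, 4 to 9 in E12.5 against E11.5 UB, 0 to 2 in NP and 7 to 9 in SP. The UB against mesenchyme contrasts gave 9 to 9 at both ages and 8 to 9 in mESC-derived cells. NP against SP gave 4 to 7 at E11.5, 1 to 3 at E12.5 and 7 to 8 in mESC-derived cells. The UB against mesenchyme differences gave 2 to 4 from E11.5 and 0 to 4 from E12.5, and the NP against SP differences 8 to 10 and 2 to 5. In the difference from E12.5 of the UB against mesenchyme contrast, the count was 0 without eUB replicate 3, 1 without E12.5 UB replicates 2, 3 or 4, eUB replicate 4 or E12.5 NP replicate 3, and 4 without E12.5 NP replicate 1. In the difference from E11.5 it was 2 without any 1 of 14 libraries: E11.5 UB replicates 1 to 4, eUB replicates 2 to 4, E11.5 SP replicates 1, 2 and 4, iSP replicates 1 and 3, E11.5 NP replicate 1 or iNP replicate 2.

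A block of the replicate number left 2 called genes in iSP against E12.5 SP, where the numbers pair no samples. The block moved no other count by over 1.5 times. With upper-quartile scaling the median of all genes was -0.121 in eUB against iNP and iSP, where it was -0.0194 in the main fit. In the UB against mesenchyme differences from E11.5 and E12.5 it was -0.107 and -0.103, against -0.0256 and -0.0485. With quantile normalisation it was 0.102 in E12.5 NP against SP and -0.12 in the NP against SP difference from E12.5, against 0.0458 and -0.0437. No direction of a called member turned under either scaling.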
